A study of Mus musculus with 9 samples.

Results

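Immediate early genes are the genes that neurons transcribe first after firing or growth factor stimulation, without waiting for new protein. The 10 described here, Npas4, Arc, Nr4a1, Fos, Fosb, Junb, Egr1, Egr2, Egr3 and Egr4, were taken by name from the 40213 genes of the count files. All 10 were found in all 9 files and all 10 passed the filter on low counts, which kept 16106 genes. The tissue was ventral hippocampus, sequenced as total RNA from 9 male wild-type C57BL/6J mice that were 8 weeks old when housed, with 3 mice in each of 3 groups. Sedentary mice (SED) had no treatment. Susceptible mice (SUS) were restrained for 2 hours a day over 14 days and did not exercise. Exercised susceptible mice (SUS_LE) were restrained in the same way and then ran on a treadmill at low intensity for 2 weeks. How susceptibility was scored, and how long after the last session the tissue was taken, are not stated in the labels. Each library came from a separate mouse, every library carries batch number 1, and library totals ran from 14172344 to 15582304 counts. Neuronal markers were present in each library, at 7221 to 8046 CPM (counts scaled to a common library size) summed over 8 genes, and none of the 8 was at 0.

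Calcium entry and kinase signalling during neuronal firing activate transcription factors already bound near these genes, chiefly CREB, SRF and MEF2. The transcripts are short-lived, so their level in dissected tissue reflects recent activity as well as the resting rate. Arc encodes an effector that moves AMPA receptors from the synapse, whereas the other 9 encode transcription factors. Npas4 is induced by calcium entry in neurons and regulates inhibitory synapses. Nr4a1 is an orphan nuclear receptor. Fos, Fosb and Junb pair to form AP-1, and Egr1 to Egr4 are zinc finger proteins of 1 family.

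Levels can be set against each other between genes only per transcript length, taken from the GENCODE M21 annotation. On that scale Egr1 was the most abundant member, with a mean of 22.4 CPM per kb over the 9 libraries and a range of 18.3 to 30.1. Egr3 followed at 20.7 CPM per kb, Nr4a1 at 14.6, Arc at 14.4 and Junb at 10.1. Npas4 stood at 4.73 CPM per kb, Egr4 at 3.01, Fos at 2.84, Fosb at 1.88 and Egr2 at 0.31. Neighbours in this order overlapped in their ranges over libraries, except that the lowest Junb value (8.32 CPM per kb) was above the highest of Npas4 (6.74), and the lowest Fosb value (1.37) above the highest of Egr2 (0.63). The spread between the highest and lowest library was 4.52-fold for Egr2, 2.21-fold for Npas4 and 2.05-fold for Fos, and it was 1.23-fold for Egr3. Egr2 rested on 6 to 27 counts per library, so counting error alone is wide: the exact 95% Poisson interval was 17.8 to 39.3 for the 27 counts of SUS 1 and 2.20 to 13.1 for the 6 counts of SUS_LE 1. These intervals cover counting error only.

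Promoters were looked up because the members are regulated through short DNA elements close to the start site. Windows from 250 bases before to 50 after a transcript start were used for 7 of the 10 members, 11 windows in all, of which 5 belong to Egr2 (RefSeq, GRCm38.p6). No window of Arc, Egr1 or Egr3 was used, so their promoters were not searched. Each motif was searched on both strands. The core of the CREB binding site, TGACG, lay in at least 1 window of all 7 members and in 9 of the 11 windows, and it lay in 20.8% of all 32851 promoter windows. Some Egr2 windows overlap and share their matches. The 250 bases upstream of Npas4 (chr19:4989972-4990221, minus strand), Nr4a1 (chr15:101266596-101266845, plus strand) and Fos (chr12:85473640-85473889, plus strand) are shown because Npas4 and Nr4a1 had higher values in all SUS libraries than in all SED libraries and Fos did not. Each of the 3 holds the core. Capitals mark the core on the printed strand (TGACG) or on the other strand (CGTCA).
Npas4: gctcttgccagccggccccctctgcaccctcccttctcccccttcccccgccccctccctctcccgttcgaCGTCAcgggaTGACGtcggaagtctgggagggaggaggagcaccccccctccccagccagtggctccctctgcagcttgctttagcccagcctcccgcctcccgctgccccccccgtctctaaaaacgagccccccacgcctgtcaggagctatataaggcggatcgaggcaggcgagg
Nr4a1: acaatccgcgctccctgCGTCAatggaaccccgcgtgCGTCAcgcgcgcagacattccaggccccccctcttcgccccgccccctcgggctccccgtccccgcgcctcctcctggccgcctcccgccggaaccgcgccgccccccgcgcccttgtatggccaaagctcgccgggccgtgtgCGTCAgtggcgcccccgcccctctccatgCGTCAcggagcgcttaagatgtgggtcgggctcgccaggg
Fos: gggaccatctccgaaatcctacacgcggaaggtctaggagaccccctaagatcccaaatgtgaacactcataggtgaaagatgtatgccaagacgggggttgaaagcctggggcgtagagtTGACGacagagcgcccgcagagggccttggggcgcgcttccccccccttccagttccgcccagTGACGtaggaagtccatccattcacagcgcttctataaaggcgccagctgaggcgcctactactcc
Npas4 holds the core 2 times, starting 179 and 169 bases upstream, Nr4a1 4 times, at 233, 213, 69 and 40 bases, and Fos 2 times, at 129 and 66 bases. Fosb has it at 60 bases, Junb at 106, and Egr4 at 177 and 109. The full palindrome TGACGTCA was in none of the 11 windows and in 1.79% of all windows. The SRF site, the CArG box, was found in 4 of the 5 Egr2 windows and in no other member window, against 1.63% of all windows. Sites further upstream than 250 bases, and any near Arc, Egr1 or Egr3, were not searched. The EGR site GCGNGGGCG was in the windows of Nr4a1 and Fosb (5.55% of all windows), whereas the AP-1 site TGANTCA (7.81%) and the NR4A site AAAGGTCA (1.51%) were in none. The EGR site does not overlap the core in either window. These are matches of letters, and no binding was measured.

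**Figure D1:**
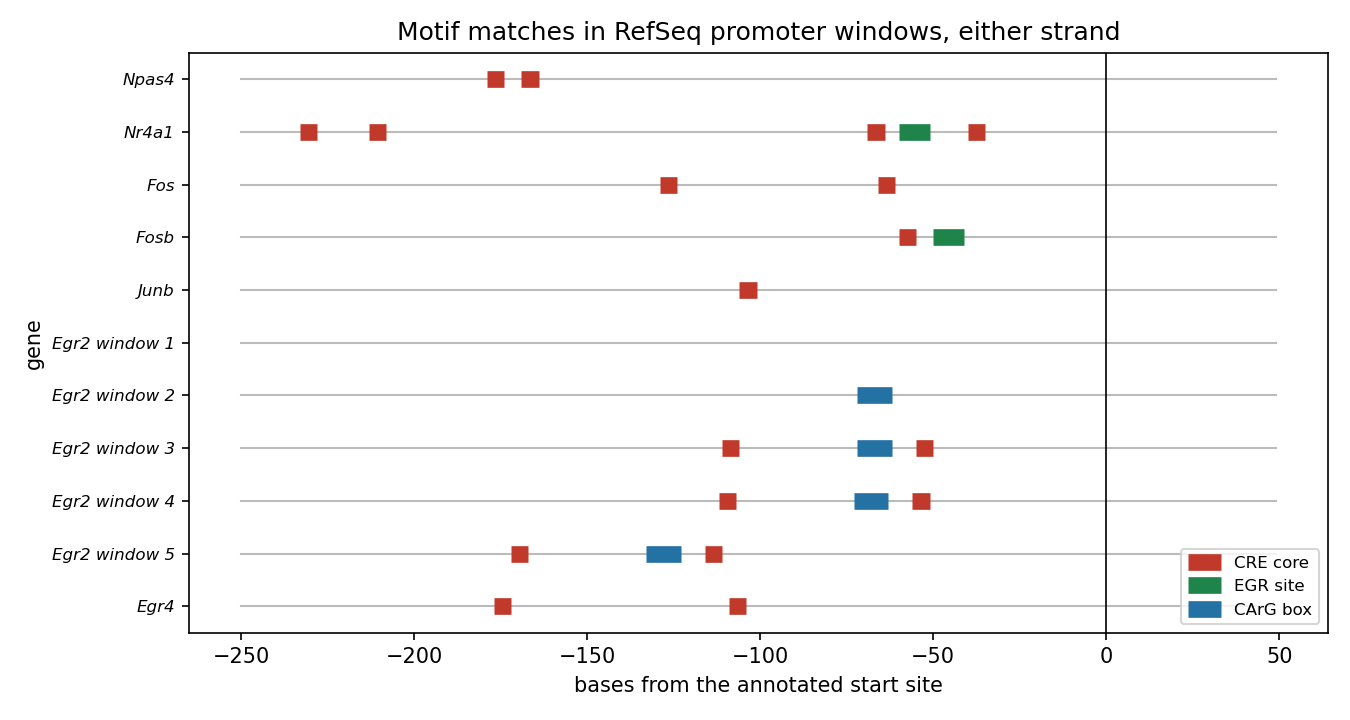
Position of motif matches in the promoter windows used, which cover 7 members, with distance from the transcript start in bases on the horizontal axis and a line for each window. The Nr4a1 window shows 4 CRE cores and the CArG box appears only in Egr2 windows.

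Whether restraint with susceptibility went with a different level of these genes is the first comparison the design gives. Npas4, Arc, Nr4a1, Fosb, Junb and Egr1 had higher values in every SUS library than in any SED library, and their fitted levels in SUS were 1.24 to 1.63 times those in SED. Fos had a lower fitted level in SUS, and Egr4 a nearly equal one. None of the 10 passed an adjusted p of 0.05 in edgeR's quasi-likelihood test with Benjamini-Hochberg adjustment, and neither did any other gene (0% of those tested). At an unadjusted p of 0.05, 6 members were higher and 0 lower, where 6.83% of all tested genes were higher and 6.26% lower. Groups that did not overlap were likewise found for those 6 members, all with higher values in SUS, against 9.72% of all tested genes in that direction and 8.56% in the other. Of the 10 members 8 had a higher fitted value in SUS, where 49.9% of all tested genes did, and their median log2 fold change was 0.36 against 0.00 over all genes. The members were chosen with earlier results of these data known, and most vary together over the same libraries. These counts therefore describe the members and are not a test of them as a set. In tissue libraries such as these, more cells of a type and more RNA per cell cannot be told apart.

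**Figure D2:**
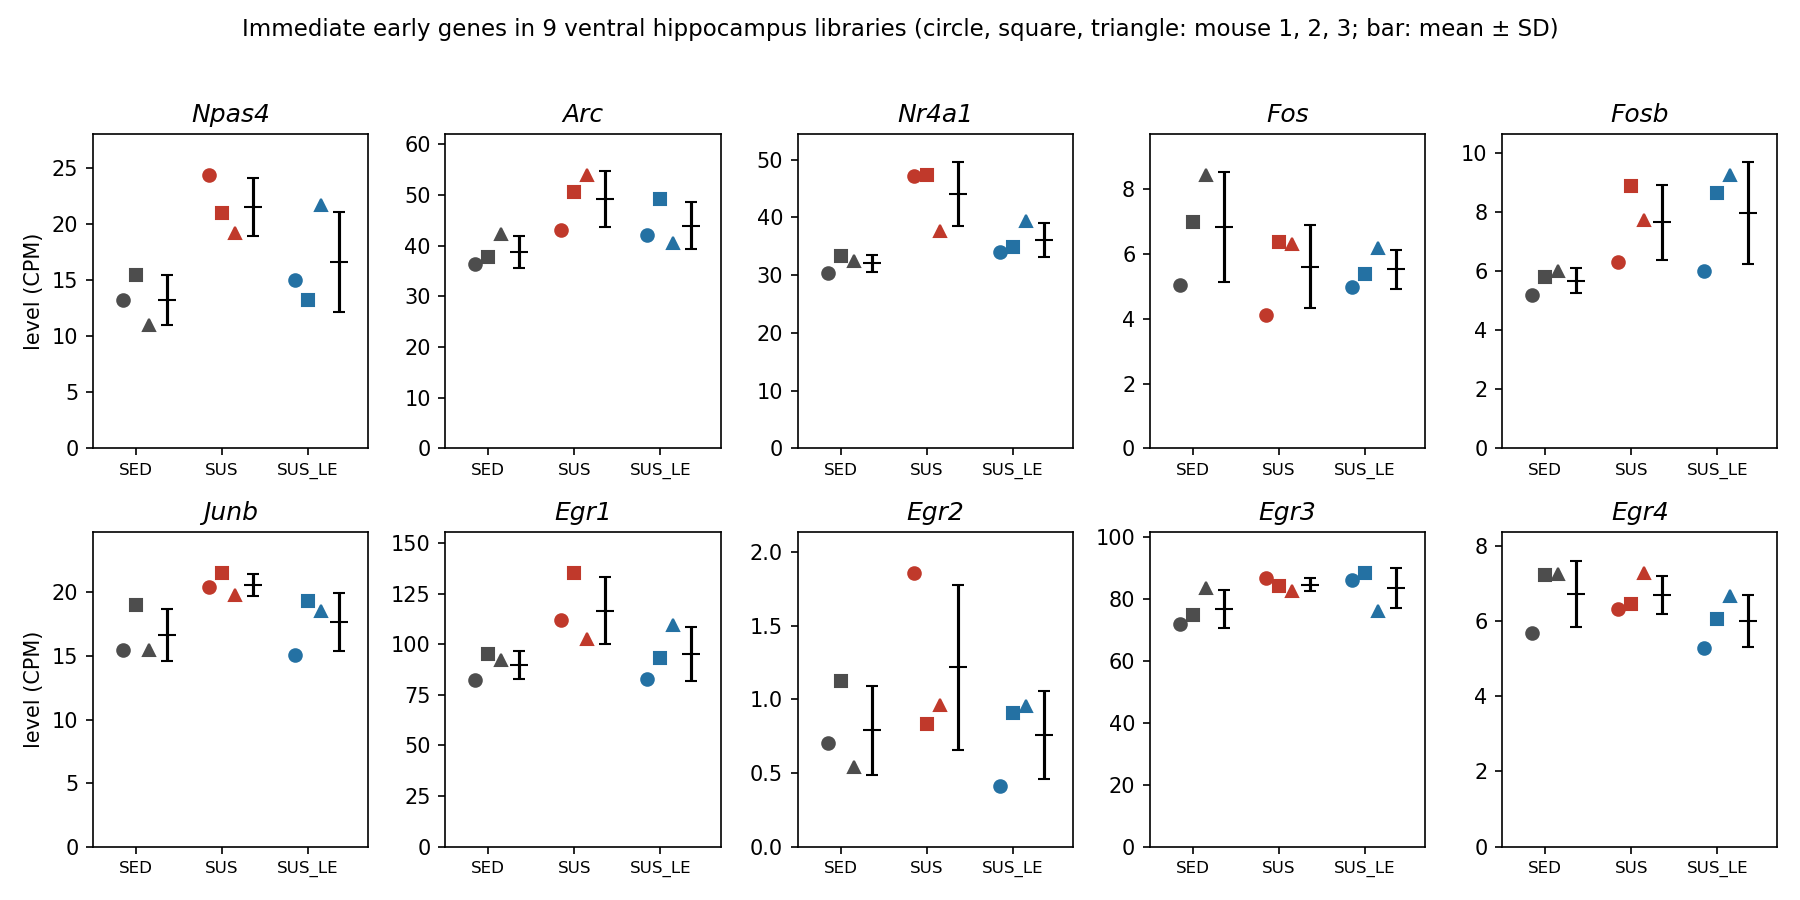
CPM of each member in each of the 9 libraries, with a point per mouse, grouped as SED, SUS and SUS_LE, with the group mean ± SD beside the points. The 3 SUS points lie above the 3 SED points for Npas4, Arc, Nr4a1, Fosb, Junb and Egr1.

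Arc, the synaptic effector, stood at 36.3, 37.7 and 42.3 CPM in SED 1 to 3 and at 43.0, 50.6 and 53.9 CPM in SUS 1 to 3. The groups did not overlap, although SUS 1 was close to SED 3. The log2 fold change was 0.34 (SE 0.09, edgeR adjusted p = 0.165).

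Npas4, the neuron-restricted factor, stood at 13.2, 15.5 and 11.02 CPM in SED and at 24.4, 21.0 and 19.3 CPM in SUS. Every SUS mouse was above every SED mouse, and the group means were 21.6 ± 2.61 against 13.2 ± 2.24 CPM (SD, n = 3). Its log2 fold change of 0.70 was the largest among the members (SE 0.19, edgeR unadjusted p = 0.00413, adjusted p = 0.188).

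Nr4a1, the nuclear receptor, stood at 30.4, 33.3 and 32.4 CPM in SED, a narrow range, and at 47.2, 47.3 and 37.6 CPM in SUS. SUS 1 and SUS 2 were nearly equal and SUS 3 was the lowest of the group, still above all SED values. The log2 fold change was 0.46 (SE 0.09), and its edgeR unadjusted p of 6.2e-05 ranked 10 among all tested genes, with an adjusted p of 0.0929. Without SUS 3 it was 0.56 with an adjusted p of 0.00621, so the adjusted p depended on 1 library (0.453% of the genes tested without SUS 3 passed).

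The AP-1 members differed in direction. Junb stood at 15.4, 19.0 and 15.5 CPM in SED and at 20.4, 21.5 and 19.8 CPM in SUS, a log2 fold change of 0.31 (SE 0.11, adjusted p = 0.238 in edgeR). Junb overlaps Prdx2 on the opposite strand in the GENCODE M21 annotation, and since the strand setting of the counting is not stated, reads of the overlap cannot be told apart. Fosb stood at 5.20, 5.82 and 6.02 CPM in SED and at 6.32, 8.88 and 7.74 CPM in SUS, a log2 fold change of 0.43 (SE 0.18, adjusted p = 0.299 in edgeR). Fos, its close relative, stood at 5.06, 7.01 and 8.45 CPM in SED and at 4.12, 6.38 and 6.31 CPM in SUS. The Fos groups overlapped, SED 3 was the highest of all 9 libraries and SUS 1 the lowest, and the log2 fold change was −0.29 (SE 0.20, edgeR adjusted p = 0.569). The ratio of Fos to Fosb counts was 0.97, 1.20 and 1.40 in SED, 0.65, 0.72 and 0.81 in SUS, and 0.83, 0.62 and 0.67 in SUS_LE. These counts are not scaled by transcript length, 2108 bases for Fos and 3782 for Fosb. The ratio therefore sets libraries against each other and does not show which gene was more abundant. This ratio was chosen after the values were seen and was not tested.

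Within the Egr family, Egr1 had the highest level. It stood at 82.1, 95.2 and 92.3 CPM in SED and at 112, 135 and 103 CPM in SUS, with SUS 2 well above the other 2 SUS mice (log2 fold change 0.37, SE 0.13, edgeR adjusted p = 0.285). Egr3, another member induced by synaptic activity, stood at 72.0, 74.6 and 83.7 CPM in SED and at 86.8, 84.2 and 82.6 CPM in SUS. SED 3 lay within the SUS range, and the log2 fold change was 0.14 (SE 0.07, edgeR adjusted p = 0.394). Egr4 stood at 5.69, 7.22 and 7.23 CPM in SED and at 6.32, 6.45 and 7.26 CPM in SUS, with a log2 fold change of −0.01 (SE 0.15, edgeR adjusted p = 0.990). Egr2, a factor also known from myelinating Schwann cells, was near the limit of counting at 0.70, 1.12 and 0.54 CPM in SED and 1.86, 0.83 and 0.96 CPM in SUS. SUS 1 alone was high, and the log2 fold change was 0.62 with an SE of 0.43 (edgeR adjusted p = 0.568).

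The calls of single members depended on the tool and the filter. DESeq2 gave an adjusted p to only 3 of the members after its independent filtering, and called Arc (adjusted p = 0.0444) and Egr1 (0.0240), where it called 3.35% of the 4865 genes with an adjusted p. Without that filtering it called Npas4 (0.0285) and Nr4a1 (0.0136) and 0.329% of 16100 genes. With no filter on low counts, edgeR called Npas4 (2.87e-06), Nr4a1 (1.86e-05), Egr1 (0.00153) and Arc (0.00313), and 1.1% of 26992 genes. The log2 fold change of Npas4 ranged from 0.57 to 0.83 over 22 alternatives.

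**Figure D3:**
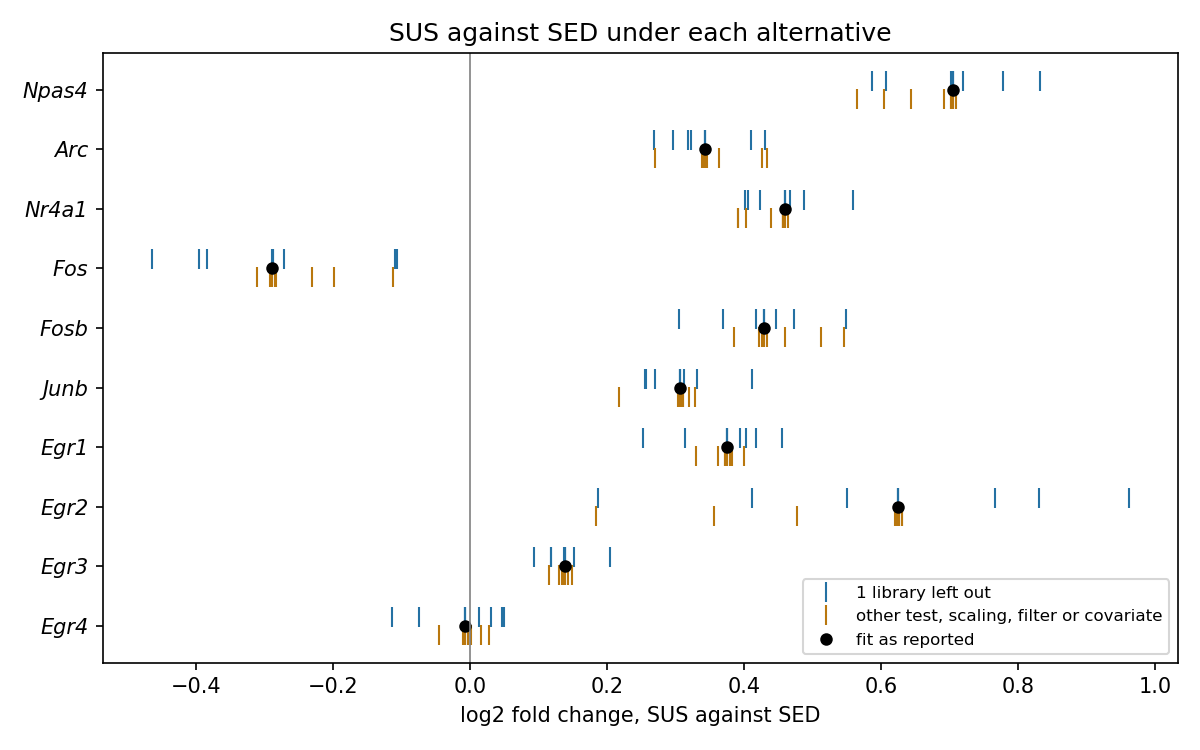
Log2 fold change of each member in SUS against SED, with a point for the fit as reported and a tick for each alternative, those that left out 1 library set above the others. Npas4, Arc, Nr4a1, Fosb, Junb, Egr1, Egr2 and Egr3 stay above 0 and Fos below 0 under each alternative run, whereas Egr4 lies on both sides of 0.

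Low-intensity exercise after restraint was compared with restraint alone next. This comparison shares the SUS libraries with the first, so a high SUS value enters both with opposite sign. The labels do not state whether SUS mice had a matching wait after restraint, so exercise and time since restraint cannot be told apart. In SUS_LE, 9 of the 10 members had lower fitted values than in SUS, Fosb being the exception, where 50.3% of all tested genes had a higher value, and the median log2 fold change was −0.19 (0.00 over all tested genes). None passed an adjusted p of 0.05 in edgeR (0% of all tested genes). At an unadjusted p of 0.05 Nr4a1 was lower and 0 members higher, a share near the 6.49% of all genes that were lower and the 7.2% that were higher. Only Junb had groups that did not overlap, all SUS_LE libraries being lower than all SUS libraries, where 8.38% of all genes had that pattern and 8.61% the opposite one. DESeq2 gave an adjusted p to only 4 of the members after its independent filtering and called none, where it called 3.28% of 5489 genes. Without that filtering it also called no member, and 0.453% of 16100 genes. With no filter on low counts, edgeR called Npas4 (adjusted p = 0.0419), Nr4a1 (0.0204) and Egr1 (0.0144) and 1.59% of 26992 genes.

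Nr4a1 stood at 34.0, 34.8 and 39.3 CPM in SUS_LE 1 to 3, of which SUS_LE 3 exceeded SUS 3. Its log2 fold change against SUS was −0.29 (SE 0.09, edgeR adjusted p = 0.171). With a choroid plexus score as covariate it was −0.35 (adjusted p = 0.0290), and 2.6% of all genes passed. Junb stood at 15.1, 19.4 and 18.5 CPM in SUS_LE, with SUS_LE 1 the lowest of all 9 libraries (log2 fold change −0.22, SE 0.11, edgeR adjusted p = 0.381). Npas4 stood at 14.99, 13.3 and 21.7 CPM, which spans from within the SED range to within the SUS range (log2 fold change −0.37, SE 0.19, edgeR adjusted p = 0.416). Arc stood at 42.0, 49.2 and 40.5 CPM, with only SUS_LE 2 inside the SUS range (−0.16, SE 0.09, edgeR adjusted p = 0.454).

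Egr1 stood at 82.8, 93.1 and 109.5 CPM in SUS_LE, so that SUS_LE 1 was near the lowest SED value and SUS_LE 3 lay among the SUS values (log2 fold change −0.29, SE 0.13, edgeR adjusted p = 0.376). Egr3 stood at 86.2, 88.3 and 76.0 CPM, with SUS_LE 3 below all SUS values and the other 2 within or above them (log2 fold change −0.02, SE 0.07). Egr4 stood at 5.27, 6.04 and 6.67 CPM (−0.16, SE 0.16) and Egr2 at 0.41, 0.91 and 0.95 CPM (−0.67, SE 0.43), and SUS_LE 1 was the lowest of all 9 libraries for both. The edgeR adjusted p of these 3 ran from 0.508 to 0.939. Fos stood at 4.996, 5.39 and 6.19 CPM, all within the SUS range (log2 fold change −0.02, SE 0.20). Fosb stood at 6.02, 8.64 and 9.26 CPM (0.06, SE 0.17) and was the only member whose mean was highest in SUS_LE, at 7.97 ± 1.72 CPM (SD, n = 3) against 7.65 ± 1.28 in SUS and 5.68 ± 0.43 in SED.

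**Figure D4:**
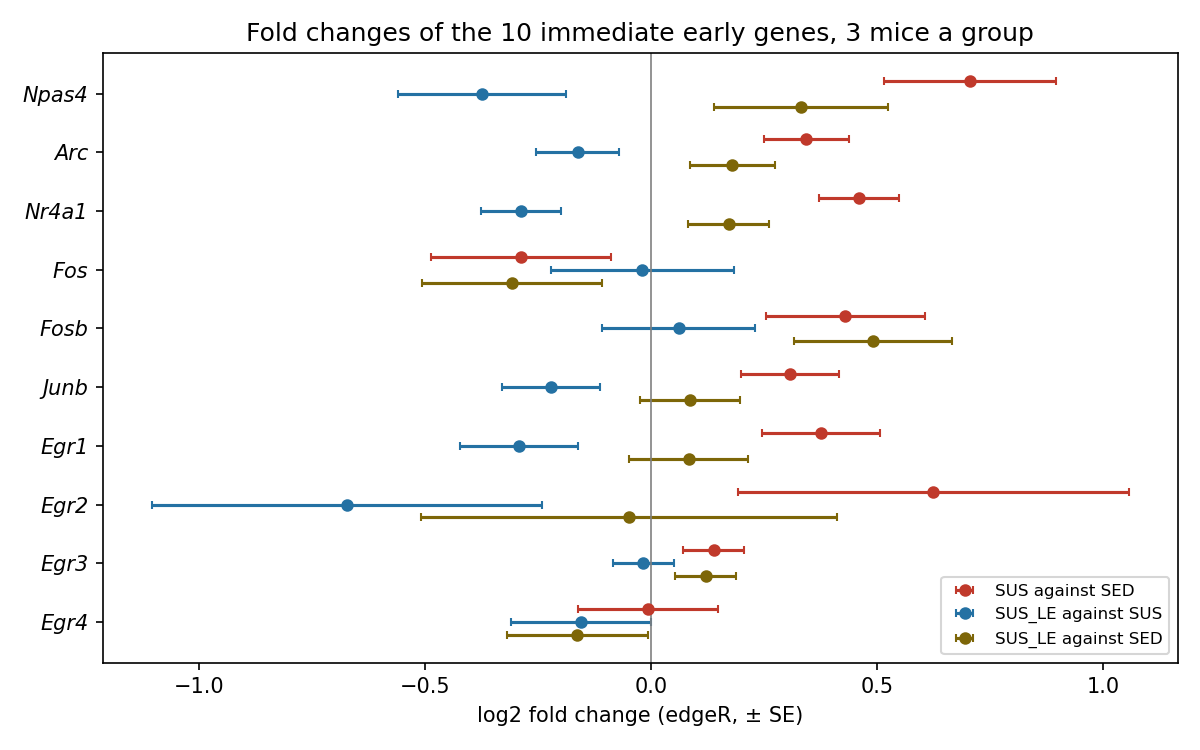
Each member's log2 fold change in the 3 comparisons, with bars of 1 SE from the edgeR fit. Npas4, Arc, Nr4a1, Junb, Egr1, Egr2 and Egr3 lie above 0 in SUS against SED and below 0 in SUS_LE against SUS, 2 comparisons that share the SUS libraries.

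Exercised susceptible mice were set against sedentary controls last. Of the 10 members 7 had higher fitted values in SUS_LE, where 52.9% of all tested genes did, and the median log2 fold change was 0.10 (0.01 over all genes). No member passed an adjusted p of 0.05 in edgeR (0% of all tested genes). Fosb was the only one at an unadjusted p of 0.05, with higher values in SUS_LE (log2 fold change 0.49, SE 0.17, edgeR adjusted p = 0.633), where 2.79% of all genes were higher and 3.86% lower. The groups of Fosb and Nr4a1 did not overlap, against 7.54% of all genes with higher values in SUS_LE and 8.64% with lower ones. For Fosb that separation is as thin as it can be, since SUS_LE 1 and SED 3 were both at 6.02 CPM, and without TMM scaling only 1 member kept apart. DESeq2 called no member and 0.0994% of the 16100 genes with an adjusted p. Log2 fold changes of the others ran from −0.31 for Fos (SE 0.20) to 0.33 for Npas4 (SE 0.19), with edgeR adjusted p of 0.767 or above. For any difference among the 3 groups the smallest adjusted p of a member was 0.127, for Nr4a1, and no member and no other gene passed (0%), while 6 members had an unadjusted p under 0.05, as did 13.5% of all genes.

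Across the 3 groups, the mean was highest in SUS for 7 members, in SED for Fos and Egr4, and in SUS_LE for Fosb. Arc, Egr1, Egr3, Junb, Npas4 and Nr4a1 had the order SUS over SUS_LE over SED. Egr3 differed little between SUS and SUS_LE (means of 84.5 and 83.5 CPM). The share of all tested genes with these patterns was not counted, so the patterns cannot be called particular to the members. Summed over the 10 members, the counts made up 0.0267% to 0.0300% of a library in SED, 0.0345% to 0.0381% in SUS and 0.0290% to 0.0322% in SUS_LE. The 3 ranges separate SUS from the others, whereas SED and SUS_LE overlap. The sum is dominated by Egr1 and Egr3, which have the most counts.

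The mice within a group did not all behave alike. SED 1 was lowest of all libraries for 5 members and above the 9-library mean for 0 of the 10. SUS_LE 1 was lowest for 3 members and above the mean for 1, whereas SUS_LE 3, of the same group, was above it for 8. All 10 members were above their mean in SUS 3, 9 in SUS 2 and 6 in SUS 1. The mean of the centred log2 CPM over the members was −0.26, −0.01 and −0.12 in SED, 0.17, 0.21 and 0.13 in SUS, and −0.23, 0.01 and 0.11 in SUS_LE. Each member weighs the same in this mean, also Egr2 with its few counts. Egr2 entered with 1.00 in SUS 1 (27 counts) and −0.86 in SUS_LE 1 (6 counts), so those libraries rest partly on counting error. On this mean SUS_LE had the widest spread, from the SED level to nearly the SUS level. The range of the summed counts above was not widest in SUS_LE.

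**Figure D5:**
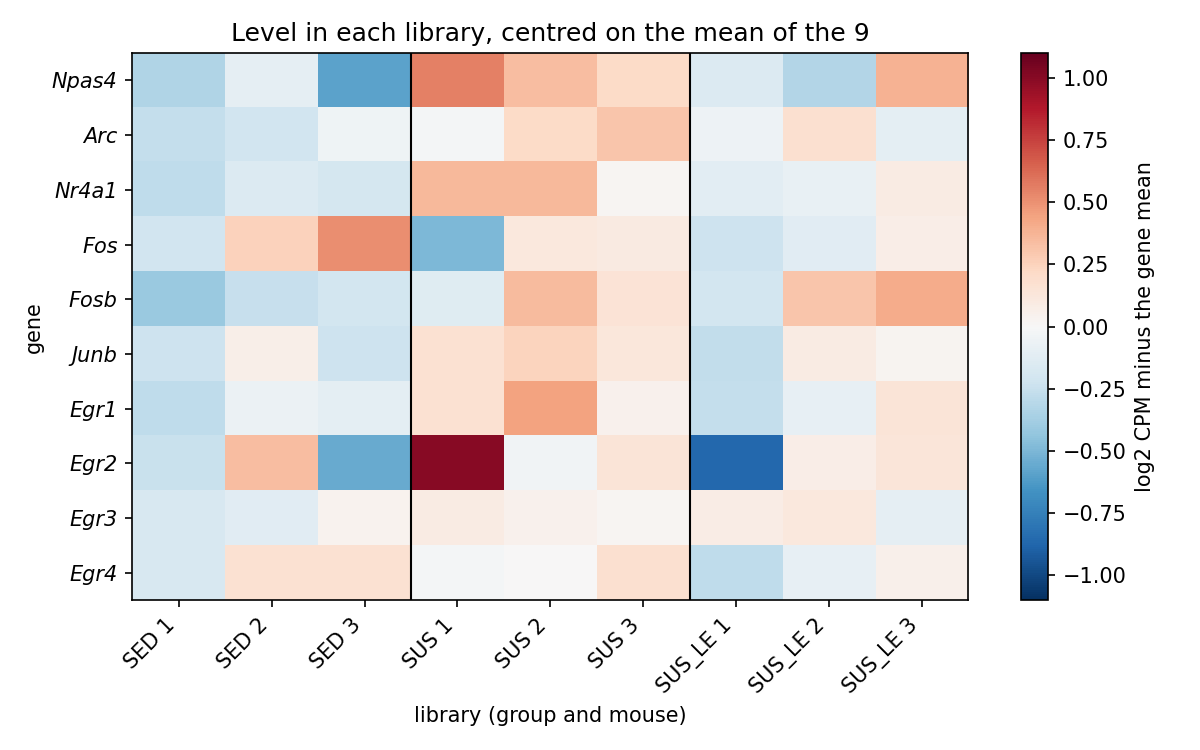
Log2 CPM of each member in each library, centred on the 9-library mean of the gene, with colour from below to above that mean. SED 1 has 0 and SUS_LE 1 has 1 of the 10 members above the mean, SED 2 and SED 3 have 4 and 3, and the SUS columns have 6 to 10.

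How members varied together is described over the 9 libraries, which share the group differences above and have no independent check. Of 45 pairs of members, 38 had a Pearson r above 0 (median 0.40), and 32 after each group was centred on its mean (median 0.29). The share over pairs of other genes was not counted, so these numbers do not set the members apart. Nr4a1 and Egr1 were the closest of the 45 pairs, with r = 0.91 over all libraries and 0.82 within groups. Npas4 and Nr4a1 had r = 0.87 and 0.62. Npas4 and Arc, both used as marks of active neurons, had r = 0.29 over all libraries and −0.79 within groups: the mouse highest in Npas4 in each group was not the highest in Arc. To the mean of the other members, Fos had r = −0.15 over all libraries and 0.28 within groups, where Junb had 0.92 and 0.83, Egr1 0.89 and 0.76, and Nr4a1 0.82 and 0.54. Of its 9 partners 4 had r above 0 with Fos over all libraries and 7 within groups, where r was 0.77 with Egr4, 0.72 with Fosb and 0.65 with Arc.

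Among 12226 other genes with a mean log2 CPM above 2, the 8 whose pattern over the 9 libraries was most like the mean of the members had Pearson r of 0.94 to 0.97. They were Gm52861 (0.97), Ccdc91 (0.97), Atp1b2 (0.96), Rims4 (0.95), Stx1a (0.94), Gap43 (0.94), Pdcd7 (0.94) and Grik3 (0.94). Atp1b2 encodes a subunit of the sodium pump, Stx1a a membrane protein of vesicle fusion, Gap43 a growth cone protein and Grik3 a kainate receptor subunit. They are the top of 12226 candidates over 9 libraries, so their r follows from that choice.

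Other genes of the same response were taken from lists of general knowledge. Of 35 further rapid immediate early genes, such as other AP-1, Klf and dual specificity phosphatase genes, 32 were tested, and in SUS against SED 18 had higher and 14 lower values, with a median log2 fold change of 0.05. None passed an adjusted p of 0.05, and 2 were higher (Per1 and Jund) and 3 lower (Sik1, Ccn1 and Klf10) at an unadjusted p of 0.05, a share near the 13.1% of all tested genes. Genes of these lists that are named without a value were picked after their values were seen, to show which genes a small count holds. Per1, a clock gene that is also induced through CREB, stood at 55.4 ± 4.59 CPM in SED, 70.2 ± 5.88 in SUS and 60.2 ± 1.19 in SUS_LE (SD, n = 3). Its log2 fold change was 0.34 in SUS against SED (SE 0.07, edgeR adjusted p = 0.0929) and −0.22 in SUS_LE against SUS (SE 0.07, adjusted p = 0.180), and neither pair of groups overlapped. Jund, the AP-1 partner that is present at rest, stood at 51.2 ± 3.74, 57.9 ± 0.21 and 48.6 ± 2.47 CPM in the same order (log2 fold changes 0.18 and −0.25, edgeR adjusted p = 0.263 and 0.133). Sik1, a kinase that restrains CREB coactivators, stood lower in SUS at 7.99 ± 0.81 CPM than in SED at 9.89 ± 0.36 (log2 fold change −0.31, SE 0.13, edgeR adjusted p = 0.306).

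In SUS_LE against SUS, 19 of the 32 had higher and 13 lower values (median log2 fold change 0.02), and 4 were higher (Klf2, Ier3, Errfi1 and Ccn1) and 2 lower (Jund and Per1) at an unadjusted p of 0.05, where 13.7% of all tested genes were. Klf2, a factor also abundant in endothelium, had a log2 fold change of 0.75 (SE 0.22, edgeR adjusted p = 0.169), and Ier3 of 0.79 (SE 0.25, adjusted p = 0.173). Summed endothelial markers were 198 to 217 CPM in SUS and 235 to 249 CPM in SUS_LE over 6 genes, and their part in those values was not tested. In SUS_LE against SED, 23 had higher and 9 lower values, of which 2 (Klf2 and Dusp5) and 1 (Fbxo33) had an unadjusted p under 0.05 (6.64% of all genes).

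Delayed effectors are genes that the early factors and calcium signalling switch on later, such as secreted peptides and synaptic proteins. All 20 were tested, and 10 had higher and 10 lower values in SUS against SED, with a median log2 fold change of 0.00 and none past an adjusted p of 0.05. Vgf, a secreted neuropeptide precursor, stood at 99.7 ± 2.05 CPM in SED, 117 ± 9.52 in SUS and 106 ± 5.84 in SUS_LE (log2 fold change 0.23 in SUS against SED, SE 0.06, edgeR adjusted p = 0.158). Spry2, an inhibitor of growth factor signalling, had a log2 fold change of 0.23 (SE 0.09, edgeR adjusted p = 0.266) and Rgs2, a regulator of G protein signalling, of 0.13 (SE 0.08, adjusted p = 0.491). In SUS_LE against SUS, 5 were higher (Ptgs2, Plk2, Gpr22, Nrn1 and Rasgrp1) and 3 lower (Spry2, Homer1 and Vgf) at an unadjusted p of 0.05, where 7.2% of all genes were higher and 6.49% lower. Ptgs2, the inducible prostaglandin synthase, stood at 26.0 ± 2.25 CPM in SUS_LE against 21.1 ± 1.47 in SUS, a log2 fold change of 0.31 (SE 0.09, adjusted p = 0.171 in edgeR), and Plk2, a kinase of synaptic scaling, at 166 ± 4.93 against 150.2 ± 7.26 (0.15, SE 0.05, adjusted p = 0.217). Both had higher values in SUS_LE than in SED too, with log2 fold changes of 0.26 and 0.14 (edgeR adjusted p = 0.633 and 0.653).

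Of 26 genes upstream, the channels, kinases and factors that carry the calcium signal to these promoters, 14 had higher and 12 lower values in SUS against SED, and none passed an adjusted p of 0.05. At an unadjusted p of 0.05, Grin1 was higher, and Mef2a, Ep300 and Creb1 were lower, where 6.83% of all genes were higher and 6.26% lower. Mef2a, a factor that binds many activity-regulated promoters, stood at 219 ± 7.87 CPM in SED, 194 ± 9.11 in SUS and 220.2 ± 6.53 in SUS_LE, and SUS overlapped neither of the others. Its log2 fold changes were −0.17 in SUS against SED (SE 0.05, edgeR adjusted p = 0.172) and 0.18 in SUS_LE against SUS (SE 0.05, adjusted p = 0.144). Ep300, a histone acetylase that works with CREB, and Creb1 itself had log2 fold changes of −0.18 (SE 0.05) and −0.19 (SE 0.06) in SUS against SED (edgeR adjusted p = 0.191 and 0.211). Creb1 also had a lower value in SUS_LE against SED (−0.16, SE 0.06, adjusted p = 0.658), with 56.9 ± 1.56 CPM in SED, 50.0 ± 1.24 in SUS and 51.0 ± 2.32 in SUS_LE. At an unadjusted p of 0.05, Mef2a and Mrtfb were among the genes higher in SUS_LE than in SUS, and Hdac5 was lower. Mrtfb, an SRF coactivator, stood at 256 ± 2.18 CPM in SUS and 282 ± 19.0 CPM in SUS_LE (log2 fold change 0.14, SE 0.05, edgeR adjusted p = 0.284).

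The 7 binding partners and corepressors of the members were all tested, and none had an unadjusted p under 0.05 in SUS against SED (13.1% of all genes). Rxrg and Rxrb, of the retinoid X receptor family that pairs with Nr4a1, had log2 fold changes of 0.28 (SE 0.20) and 0.23 (SE 0.12), and Nab1, a corepressor of Egr proteins, of −0.10 (SE 0.07). In SUS_LE against SUS, Rxra (−0.24, SE 0.09, edgeR adjusted p = 0.238) and Rxrb (−0.29, SE 0.12, adjusted p = 0.288) were lower at an unadjusted p of 0.05, as were 6.49% of all genes. Rxra also had an unadjusted p under 0.05 in SUS_LE against SED (−0.27, SE 0.09, adjusted p = 0.555).

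Several other measures differed between the groups along with the members. The GC content of the transcripts of all 10 members, 51.3% to 68.2%, was above the median of 50% of tested genes. Over 14697 genes with a value, the log2 fold change followed GC content with Spearman rho of 0.37 in SUS against SED, −0.40 in SUS_LE against SUS and −0.03 in SUS_LE against SED, a description across genes that share libraries. With per-library GC and length trends removed, the fold changes in SUS against SED were 0.64 for Npas4, 0.39 for Nr4a1, 0.39 for Fosb, 0.33 for Egr1, 0.27 for Arc and 0.22 for Junb, and 5 members had an unadjusted p under 0.05, where 5.47% of all tested genes were higher and 3.01% lower in the corrected fit. In SUS_LE against SUS they were −0.28 for Npas4, −0.20 for Nr4a1, −0.20 for Egr1, −0.10 for Junb and −0.06 for Arc, and 0 members had an unadjusted p under 0.05, against 4.64% of all genes higher and 3.77% lower. In both comparisons, each fold change given here was nearer to 0 than in the fit without the correction. Those given cover only members whose SUS and SED values did not overlap, and Fosb is left out of SUS_LE against SUS. The statement does not extend to the members left out.

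Of the marker lists run, that of the choroid plexus varied most between libraries. Its 8 markers summed to 3165 to 4655 CPM in SED, 49.1 to 6512 in SUS and 83.7 to 1625 in SUS_LE, and none was at 0. SUS 1, SUS_LE 3 and SUS_LE 1 were lowest, with 27.4, 59.6 and 83.2 CPM of Ttr, the carrier protein that choroid plexus secretes. Without these 3 libraries Arc had a log2 fold change of 0.43 in SUS against SED with an edgeR adjusted p of 0.0167, where 0.0838% of the genes tested passed and SUS is left with 2 mice. Markers of CA1 pyramidal cells, 4 genes, summed to 311 to 355 CPM in SED, 353 to 412 in SUS and 319 to 374 in SUS_LE, with all 4 at higher fitted values in SUS than in SED. Dentate granule cell markers, 5 genes, summed to 238 to 309, 211 to 261 and 249 to 298 CPM, with all 5 lower in SUS than in SED. Oligodendrocyte markers, 5 genes, summed to 2385 to 2560, 2027 to 2302 and 2054 to 2533 CPM, and astrocyte markers, 5 genes, to 971 to 1037, 923 to 970 and 1000 to 1063 CPM. Interneuron markers, 6 genes, summed to 582 to 611, 620.0 to 644 and 612 to 660.3 CPM, with 5 of the 6 at higher fitted values in SUS than in SED. Of the 8 neuron markers, 5 had higher and 3 lower fitted values in SUS than in SED. Rbfox3 (log2 fold change 0.24), Tubb3 (0.23) and Slc17a7 (0.16), named after their values were seen, had higher values in all SUS than in all SED libraries. Map2 (−0.10) had lower ones, where 9.72% of all tested genes had the first pattern and 8.56% the second. The summed neuron list overlapped (7395 to 7565 and 7221 to 7942 CPM). The summed CA3, neocortical, microglial and meningeal markers overlapped between SED and SUS. No neuron, CA1, dentate, oligodendrocyte, interneuron or astrocyte marker passed an adjusted p of 0.05 or was at 0, and the part of these shifts in the member values was not tested.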

How the data were processed

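Tools named in the submitters' processing notes are Salmon, STAR and fastp, with GRCm39 as the build; versions, annotation, strand setting, use of molecular identifiers and any rounding are not given in the sources used here. The deposited values are counts per gene symbol, whole numbers with no normalization, in 1 file per library (RNAiso Plus extraction and CORALL RNA-seq V2 libraries, per the labels). Column headers number the exercised mice differently from the labels; the labels' numbers are used. The members, gene lists and tests were chosen with earlier results of these data known.

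Genes were kept by edgeR's filterByExpr (16106, holding 99.9% of counts) and scaled by TMM. A robust quasi-likelihood fit of group alone to the 9 libraries gave all 3 comparisons (edgeR 4.0.16, R 4.3.3), with p-values adjusted by Benjamini-Hochberg over all tested genes at a threshold of 0.05. The common biological coefficient of variation was 0.0845. Scripts were tested on simulated data. CPM uses TMM-scaled library sizes, and log2 CPM a prior count of 2. Alternatives used DESeq2 1.42.0, limma 3.58.1 (voom), other scaling and filters, the replicate block, a choroid plexus covariate, GC and length offsets (GENCODE M21, matched for 91.3% of tested genes), and leaving out libraries. DESeq2 without independent filtering was added after seeing the data. Named genes were the 10 members, of each other list the 3 with the smallest unadjusted p in the first 2 comparisons, the 8 most like the members' mean, and Ttr; 1 gene that the rule names is not reported here. No library pair of a group agreed within sampling noise (chi-square per degree of freedom 2.70 to 14.6).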

Additional observations from a re-analysis of the deposited data

How the results depend on the processing

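Of 657 log2 fold changes of members under 22 alternatives, 9 of which left out 1 library each, 606 kept their direction and side of the threshold, 13 kept their direction but had no DESeq2 adjusted p, 14 passed the threshold where the reported fit did not, and 24 changed sign; none of the last had passed in the reported fit. Without the 3 libraries lowest in Ttr, SUS_LE holds 1 mouse and SUS 2, so the lone SUS_LE library is assumed to vary like the others. Sign changes were as follows. Egr4 in SUS against SED was 0.0016 under voom, 0.028 without the 3 libraries lowest in Ttr, 0.016 with the choroid plexus covariate and −0.11 to 0.050 when 1 library was left out. In SUS_LE against SUS, Fosb was −0.018 under voom and −0.059 to 0.23 leaving out 1 library, Egr3 was 0.086 without the 3 libraries and −0.059 to 0.046 leaving out 1, Egr2 was 0.025 without the 3 libraries, and Fos was 0.11 with the covariate, 0.0027 with GC and length trends removed and −0.20 to 0.080 leaving out 1. In SUS_LE against SED, Egr2 was 0.21 without the 3 libraries and −0.26 to 0.29 leaving out 1, and Egr1 was −0.030 to 0.17 leaving out 1, the lowest without SUS_LE 3.

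The number of members past an adjusted p of 0.05, 0 as reported, changed as follows. In SUS against SED it was 4 with no filter on low counts, 2 by DESeq2 with or without independent filtering, 1 without the 3 libraries and 0 to 1 leaving out 1 library (Nr4a1 without SUS 3). It was 3 in SUS_LE against SUS with no filter and 1 with the covariate. For any difference among the groups it was 4 with no filter, 1 by DESeq2, 2 by DESeq2 without independent filtering, 1 without the 3 libraries, 2 with the covariate and 0 to 1 leaving out 1 library. At an unadjusted p of 0.05, SUS against SED had 6 members as reported and 4 to 7 under the alternatives, with 4 without SED 1. SUS_LE against SUS had 1 member as reported; it had 2 with upper quartile factors, with only 2 groups in the fit, without the 3 libraries or with the covariate, 3 with no robust step, by voom and by DESeq2 with or without independent filtering, 5 with no filter, 0 with GC and length trends removed and 1 to 3 leaving out 1 library. SUS_LE against SED had 1; it had 4 with no filter, 3 with only 2 groups or without the 3 libraries, 2 with the covariate or with GC and length trends removed, and 1 to 3 leaving out 1 library. On unscaled library sizes 7 members, against 6, had groups that did not overlap in SUS against SED, and 1, against 2, in SUS_LE against SED.

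Over all genes, 0 passed an adjusted p of 0.05 as reported in each comparison, with 2108, 2205 and 1070 at an unadjusted p of 0.05. In SUS against SED 297 passed with no filter, 163 by DESeq2, 53 by DESeq2 without independent filtering, 14 without the 3 libraries and 0 to 74 leaving out 1 library, the most without SUS 3. For SUS_LE against SUS 430 passed with no filter, 180 by DESeq2, 73 without its independent filtering, 20 without the 3 libraries, 418 with the covariate, 1 each with a minimum of 10 counts in all libraries, with no robust step and with only 2 groups, and 0 to 184 leaving out 1 library, the most without SUS 2. In SUS_LE against SED 218 passed with no filter, 239 with only 2 groups, 16 by DESeq2 with or without independent filtering, 16 without the 3 libraries, 2 with the covariate, 1 with no robust step and 0 to 69 leaving out 1 library, the most without SUS 1. The cause of these differences was not tested.

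Same-numbered libraries deviated together with correlations of −0.15 to 0.27, not all above 0.1, so the numbers were not taken as pairs. With the replicate block, 1 gene passed in SUS against SED and 1 in SUS_LE against SUS, no member passed, and 3 members in SUS_LE against SUS and 2 in SUS_LE against SED had an unadjusted p under 0.05, where 13.1% and 6% of all genes did in that fit.

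Egr2 has no value under the minimum of 10 counts, since SED 3 and SUS_LE 1 fell below it. With 3 mice per group, the TMM-scaled values of Fos, Egr2, Egr3 and Egr4 overlapped between the groups in all 3 comparisons. The low counts of Egr2 limit it further, and a count of 0 members past the threshold does not show that the groups are alike.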
